A study of Mus musculus with 10 samples.

Results

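Liver tumours raised in mice with Akt, Nras and Foxo1AAA were compared with normal liver across the expressed genes. The comparison used 7 of the 10 libraries of the series, 4 from normal livers of wild-type FVB mice and 3 from Akt/Nras/Foxo1AAA tumours, and values are listed in the order of the replicate numbers in the sample titles. Its genes were the 11888 of 56748 listed genes with at least 1 FPKM in 3 or more of these 7 libraries. FPKM, the deposited unit, is the number of read fragments scaled to the length of the gene and the size of the library. Of the genes 10573 were protein coding, 475 were long non-coding and 840 were of other kinds.

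The tumours model hepatocellular carcinoma. They were made by hydrodynamic tail vein injection, a fast injection of DNA into the tail vein that carries it into hepatocytes, and the mice were labelled wild type before it. Each of these tumours received Akt, Nras and Foxo1AAA, normal liver is labelled with no treatment, and another group of 3 Akt/Nras tumours received Akt and Nras without Foxo1AAA. Promoters, species and sequences of the injected genes and the age of the mice were not given in the labels. Nothing says that the samples of a group came from separate mice, so the p-values rest on a spread between samples that may be technical. In bulk tissue, fewer cells of a type and less RNA per cell cannot be told apart.

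AKT is the kinase that carries the insulin signal in hepatocytes. It phosphorylates FOXO transcription factors, which keeps them out of the nucleus and lowers their targets, among them the glucose-6-phosphatase and insulin receptor substrate genes. Foxo1AAA is a form of FOXO1 with the AKT phosphorylation sites changed to alanine, so AKT cannot inhibit it. NRAS is a small GTPase that activates the RAF, MEK and ERK kinases, whose output includes a set of genes that feed back on the pathway.

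The recovered reads numbered 1.36e+07 to 1.75e+07 per normal liver and 1.54e+07 to 2.07e+07 per tumour, so that 1 read over a gene of 1 kb was worth 0.0551 to 0.113 FPKM. Taken across genes, which do not count as independent replicates, Pearson's r of log2(FPKM + 1) was 0.975 to 0.987 between the tumours, 0.984 to 0.990 between the normal livers and 0.821 to 0.877 between a tumour and a normal liver. All 10 libraries had at most 0.0190 FPKM of Xist, the transcript of the inactive X chromosome, and at least 7.87 FPKM of the Y-linked gene Ddx3y, so no library differed in sex. FPKM summed to 692010.0 to 743203 in normal liver and to 413812 to 444893 in the tumours. The values were tested as deposited, and bringing all libraries to one FPKM total (equal totals) moved the median log2 change of all genes from -0.12 to 0.45. Directions of small changes therefore depend on the scaling, so calls of named genes that did not hold with equal totals are given beside them, and so are the counts of each list with equal totals.

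A gene was called at a limma adjusted p under 0.05 and a log2 change of 1 or more in either direction, on the scale of log2(FPKM + 1). On this rule 1271 genes were higher in the tumours (10.7% of the genes tested) and 1475 were lower (12.4%). With equal totals these numbers were 2447 and 604. The libraries of both groups did not overlap in 1265 of the genes called higher and in 1450 of those called lower. The call rule itself favours genes whose groups are apart, so a lack of overlap in called genes, here and below, describes them and adds no support. Log2 changes of 3 or more in either direction were reached by 125 genes that rose and 88 that fell. At the edges of expression, 742 genes reached 1 FPKM in all 3 tumours and in no normal liver, and 517 reached it in at least 3 normal livers and in no tumour. Such genes were tested only because of the group where they are high. Shares called in lists that hold many low genes partly follow from this.

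**Figure D1:**
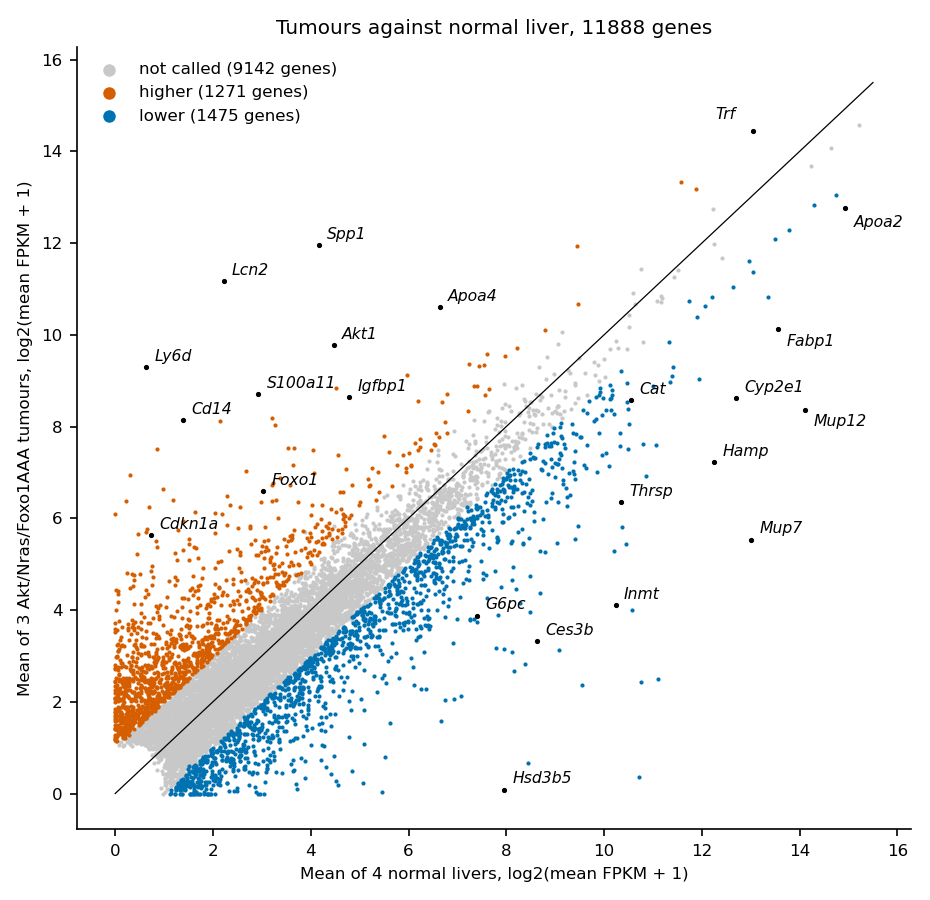
Mean expression of each gene in the 4 normal livers (x axis, log2(mean FPKM + 1)) against its mean in the 3 Akt/Nras/Foxo1AAA tumours (y axis, same scale). Coloured points are the 1271 genes called higher and the 1475 called lower, and the labelled genes are described in the text.

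By mean FPKM the 5 genes called higher that gained most were those of transferrin (Trf), haptoglobin (Hp), hemopexin (Hpx), osteopontin (Spp1) and the extracellular chaperone clusterin (Clu), and Clu stood at 692, 653, 730.4 and 706 FPKM in the normal livers and at 3234, 3807 and 4656 FPKM in the tumours. The 5 genes called lower that lost most were Apoa2, mt-Co1, Mup12, Apoa1 and Fabp1. On the log2 scale Lcn2 and Ly6d rose most among genes with at least 10 FPKM in the tumours, by 9.05 and 8.52, and Akr1c18, a steroid dehydrogenase, rose by 6.15, from 0.283, 0.277, 0 and 0.0940 FPKM to 61.7, 95.3 and 90.4 FPKM. Inmt, a methyltransferase of small amines, stood at 1019, 1357, 1290.3 and 1153 FPKM in the normal livers and at 17.2, 16.3 and 14.9 FPKM in the tumours (log2 change -6.13). The groups did not overlap in any of these genes. The 10 largest log2 falls from at least 10 FPKM were those of Inmt, Hsd3b5, the pseudogene Serpina4-ps1 and 7 Mup genes. The calls of mt-Co1 and Apoa1 did not hold with equal totals.

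The injected genes checked the labels. Foxo1 stood at 6.75, 7.01, 8.02 and 6.93 FPKM in the normal livers and at 83.3, 77.9 and 125 FPKM in the tumours (log2 change 3.53, SE of 0.14, limma adjusted p = 3.11e-08). Akt1 stood at 21.6, 20.6, 20.9 and 21.5 FPKM in the normal livers and at 670.4, 771 and 1198 FPKM in the tumours. Tumour 3 was the highest in both genes and the groups did not overlap. Nras stood at 5.56, 5.42, 4.84 and 5.51 FPKM and at 9.46, 8.96 and 9.28 FPKM, which did not overlap either, and its log2 change of 0.69 (SE 0.08, limma adjusted p = 1.69e-05) was under the limit of 1. With equal totals Nras was called higher. Reads from the constructs and from the mouse genes were not separated.

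The paralogs Akt2, Foxo3, Foxo4 and Hras of the injected genes were not called with either scaling. Akt2, the AKT gene most tied to insulin action in liver, stood at 26.3, 27.6, 27.8 and 26.5 FPKM in the normal livers and at 17.8, 15.7 and 15.6 FPKM in the tumours (log2 change -0.696). Foxo3 had a log2 change of -0.76 and Foxo4 one of -0.18, and both transcription factors share targets with FOXO1. The RAS gene Hras had a log2 change of 0.15.

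Feedback and output genes of the ERK pathway rose together. Of 21 tested members of this list 15 were higher and 1 was lower, with a median log2 change of 1.79 against -0.12 over all genes, and with equal totals the numbers were 17 and 1. Dusp4, a nuclear phosphatase that inactivates ERK, stood at 0.686, 0.570, 0.534 and 0.621 FPKM in the normal livers and 6.92, 9.39 and 20.2 FPKM in the tumours (log2 change 2.91, SE of 0.31, limma adjusted p = 1.65e-05). Every tumour was above every normal liver, and tumour 3 was the highest. Dusp6, the cytoplasmic ERK phosphatase, rose 4.62-fold from 9.89 ± 1.21 FPKM (SD, n = 4) in normal liver to 45.7 ± 23.8 FPKM (SD, n = 3). The ETS transcription factor Etv4 was at 0.0825, 0.144, 0.0337 and 0 FPKM in the normal livers and at 6.797, 8.53 and 12.2 FPKM in the tumours, again without overlap. Etv5 rose too, with a log2 change of 2.07. Ier3, an early response gene that ERK induces, went from 0.796 ± 0.421 FPKM (SD, n = 4) in normal liver to 44.7 ± 34.995 FPKM (SD, n = 3), with the tumours spread between 11.2 and 81.0 FPKM.

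The inhibitors of receptor signalling Spry1, Spry2 and Spred1 had log2 changes of 1.79, 1.59 and 1.28. Cyclin D1 (Ccnd1), which drives entry into the cell cycle, rose 3.499-fold from 10.4 ± 3.197 FPKM (SD, n = 4) in normal liver to 36.4 ± 10.6 FPKM (SD, n = 3) in tumours, with limma adjusted p = 2.76e-04. The immediate early genes split: Fos (log2 change 2.65) and Egr1 (2.14) rose, whereas Myc and Ier2 were not called. Phlda1 was the 1 member that fell, from 35.2, 69.9, 61.9 and 40.1 FPKM in the normal livers to 10.1, 14.7 and 11.2 FPKM in the tumours. In the list of RAS and RAF kinases and adaptors 6 of 19 were called higher with equal totals and 1 on the deposited scale, the ERK1 gene Mapk3, which stood at 25.9, 23.01, 22.6 and 23.2 FPKM and at 64.5, 78.2 and 73.9 FPKM (log2 change 1.57, SE of 0.09, limma adjusted p = 2.52e-07).

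The EGF receptor itself went the other way from its ligands. Egfr fell 5.71-fold, from 61.3, 43.6, 72.9 and 72.7 FPKM in the normal livers to 13.2, 9.06 and 10.6 FPKM in the tumours (log2 change -2.396, SE of 0.18, limma adjusted p = 1.11e-06), and the receptor gene Erbb3 fell as well (log2 change -1.596). The ligand genes Tgfa, Nrg4 and Btc rose, Tgfa from 4.32 ± 0.337 FPKM (SD, n = 4) in normal liver to 17.3 ± 3.14 FPKM (SD, n = 3). The groups did not overlap in any of these 5 genes. The call of Erbb3 did not hold with equal totals. These 5 were all that was called among the 8 tested members of the EGF receptor list, where 3 were higher and 1 lower with equal totals. Nrg4 lost its call against normal liver without tumour 3 (log2 change 0.84, limma adjusted p = 2.33e-04).

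The AKT and insulin list as a whole was not called beyond the shares of all genes on the deposited scale. Of 29 tested members 3 were higher (10.3%, against 10.7% of all genes) and 2 were lower (6.9%, against 12.4%). With equal totals 7 were higher and 0 lower, beside 2447 and 604 of all 11888 genes. Those that rose on the deposited scale were the injected gene Akt1, the pseudokinase gene Trib3 and Pik3r3, a regulatory subunit of phosphoinositide 3-kinase. Trib3, whose product binds AKT, stood at 5.39, 6.45, 2.95 and 4.38 FPKM in the normal livers and at 20.51, 19.04 and 47.4 FPKM in the tumours, with tumour 3 far above the others. Those that fell were the adaptor Irs2 and Deptor, an inhibitor of mTOR. Irs2, an insulin receptor substrate and a known FOXO1 target in liver, stood at 4.27, 7.39, 5.93 and 5.097 FPKM and at 1.94, 1.38 and 1.95 FPKM (log2 change -1.26, SE of 0.25, limma adjusted p = 0.00124), with no overlap. The calls of Irs2 and Deptor did not hold with equal totals. The insulin receptor gene Insr had a log2 change of -0.796, and it, Tsc1 and Tsc2 were not called.

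Genes known as FOXO targets were called in both directions, with a share called higher on the deposited scale near that of all genes. Of 38 tested members, Foxo1 included, 4 were higher (10.5%, against 10.7% of all genes) and 10 were lower (26.3%, against 12.4%). Their median log2 change was -0.49. With equal totals 7 were higher and 3 lower with a median of 0.12. On that scale 2447 of all 11888 genes were higher and 604 lower, with a median of 0.45. The glucose-6-phosphatase gene G6pc, which releases glucose from the hepatocyte, and Igfbp1, a secreted binder of insulin-like growth factors, are classic insulin-repressed FOXO targets of liver, and they went opposite ways. A search of the 250 bases before each gene's start for the FOXO-bound letters CAAAACA, on both strands, found them in 4 of the 32 listed genes with a promoter in the RefSeq table of build GRCm38.p6 and in 1827 of all 32851 promoters (5.56%). The 4 were G6pc, Igfbp1, Irs2 and Ccng2. The promoters of Igfbp1 (chr11:7197537-7197786, plus strand) and G6pc (chr11:101367466-101367715, plus strand) are shown because both hold the letters and their genes changed in opposite directions. Capitals mark the match, which lies on the plus strand 108 to 102 bases before the start of Igfbp1 and on the minus strand 174 to 168 bases before the start of G6pc. A match is a description and not a measured site.
Igfbp1: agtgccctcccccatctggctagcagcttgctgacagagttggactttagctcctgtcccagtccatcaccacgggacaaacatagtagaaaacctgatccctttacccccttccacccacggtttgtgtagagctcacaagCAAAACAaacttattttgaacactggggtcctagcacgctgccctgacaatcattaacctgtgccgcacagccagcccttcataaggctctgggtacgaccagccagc
G6pc: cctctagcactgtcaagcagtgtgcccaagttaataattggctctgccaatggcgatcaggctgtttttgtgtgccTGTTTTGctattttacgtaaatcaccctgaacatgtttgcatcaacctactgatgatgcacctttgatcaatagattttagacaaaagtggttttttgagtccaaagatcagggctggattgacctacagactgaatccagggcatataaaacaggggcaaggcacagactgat

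G6pc stood at 142, 204, 170.0 and 159 FPKM in the normal livers and at 17.6, 10.3 and 13.3 FPKM in the tumours (log2 change -3.55, SE of 0.18, limma adjusted p = 1.27e-07). Igfbp1 stood at 18.7, 26.5, 41.7 and 19.7 FPKM in the normal livers and at 138, 196 and 859 FPKM in the tumours (log2 change 3.45, SE of 0.57, limma adjusted p = 3.40e-04). G6pc fell 12.3-fold with tumours close together, whereas Igfbp1 rose 14.9-fold and was more than 4 times as high in tumour 3 as in tumour 2. Neither gene's groups overlapped. The gluconeogenic enzyme gene Pck1 fell from 1117 ± 177 FPKM (SD, n = 4) in normal liver to 387 ± 79.8 FPKM (SD, n = 3) in tumours, with limma adjusted p = 0.00105. Catalase (Cat), Sod2 and Klf15 fell with log2 changes of -2.02, -1.35 and -1.96, and so did Angptl4, Bnip3, Gabarapl1, Apoc3 and Irs2. The cell cycle inhibitor Cdkn1a and the stress gene Gadd45a rose, Cdkn1a from 1.03, 0.376, 0.676 and 0.575 FPKM to 32.002, 38.1 and 75.7 FPKM. The calls of Pck1, Sod2, Angptl4, Bnip3, Gabarapl1, Apoc3 and Irs2 did not hold with equal totals. Apoc3 lost its call against normal liver without tumour 3 (log2 change -0.79, limma adjusted p = 0.00207), and Gadd45a lost its call without normal liver 3 (log2 change 0.98, limma adjusted p = 0.00153).

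**Figure D2:**
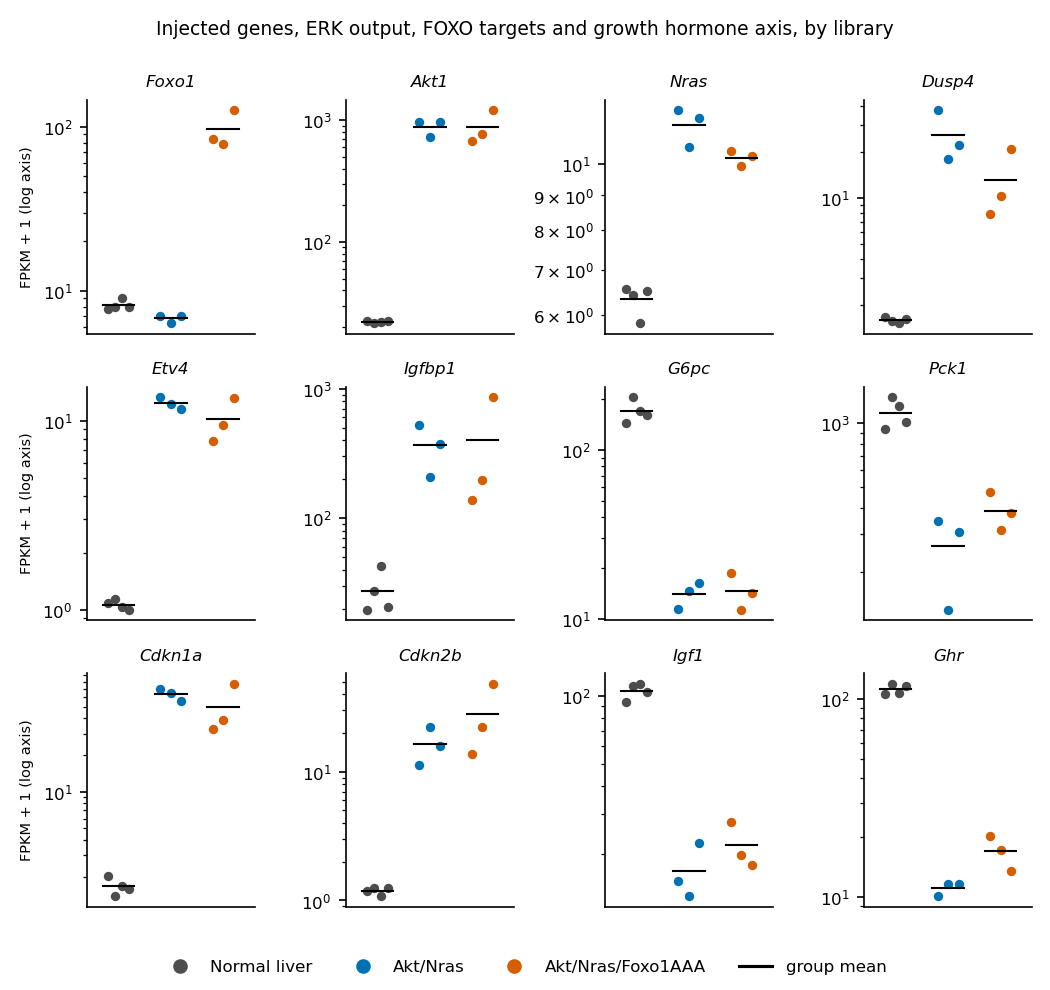
Expression (FPKM + 1, log scale) of 12 genes in each of the 4 normal livers, 3 Akt/Nras tumours and 3 Akt/Nras/Foxo1AAA tumours, with a bar at each group's mean. Foxo1 is high in the Akt/Nras/Foxo1AAA tumours alone, at 77.9 to 125 FPKM, while Igfbp1 and Dusp4 are high and G6pc, Igf1 and Ghr are low in both tumour groups.

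The growth hormone receptor gene and Igf1 fell, and the other genes of this axis were mixed. Growth hormone acts on hepatocytes through its receptor and STAT5 and maintains hepatic output of IGF1. Ghr, the receptor gene, went from 105, 118, 106 and 116 FPKM in the normal livers to 19.2, 16.3 and 12.5 FPKM in the tumours, a 6.95-fold fall (log2 change -2.74, SE of 0.13, limma adjusted p = 6.27e-08). Igf1 fell 5.005-fold, from 104 ± 8.29 FPKM (SD, n = 4) in normal liver to 20.8 ± 5.22 FPKM (SD, n = 3). The carriers of IGF1 in blood diverged. Igfals, the acid-labile subunit, fell with a log2 change of -2.61 and Igfbp2 with one of -2.71, whereas Igfbp3 and Igfbp7 rose. Igfbp3 stood at 12.2, 11.6, 8.18 and 11.96 FPKM in the normal livers and at 29.8, 64.9 and 219 FPKM in the tumours, rising most in tumour 3. Of 17 tested members of the list 4 were higher, these with Igfbp1 and the clearance receptor gene Igf2r, and 8 were lower, with a median log2 change of -0.64. With equal totals the median was 0.01, with 4 higher and 5 lower.

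Male-biased liver genes, which the pulsed growth hormone of males maintains, had the lowest median of the lists. Of 28 tested members 24 fell and 1 rose, with a median log2 change of -3.44, and 21 fell with equal totals. The steroid dehydrogenase gene Hsd3b5 stood at 259, 211, 246 and 274 FPKM in the normal livers and at 0.0711, 0.0722 and 0.0452 FPKM in the tumours, whose mean was 0.0254% of that in normal liver. The major urinary protein gene Mup7 stood at 8127, 8468, 9503 and 6759 FPKM and at 129.6, 1.41 and 5.29 FPKM, and tumour 1 held most of what was left. Mup12 stood at 17686, 24322, 12223 and 16619 FPKM and at 671, 242 and 73.2 FPKM. The Mup genes are near-identical copies, so how reads were split among them is uncertain. The hydroxylase genes Cyp4a12a, Cyp7b1 and Cyp2d9 fell 18.4-fold, 13.6-fold and 6.001-fold. Mup20, the pheromone gene darcin, was the 1 member that rose, from 162, 164, 208 and 242 FPKM to 1206, 773 and 312 FPKM.

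Female-biased genes went mostly the other way. Of 20 tested members 9 rose and 4 fell, and with equal totals 11 and 3. Cyp2a4, a steroid hydroxylase of female liver, stood at 0.197, 2.31, 0.241 and 0.522 FPKM in the normal livers and at 295, 126 and 125 FPKM in the tumours, and shares most of its sequence with Cyp2a5, so its count is uncertain. Cyp17a1, which makes androgens, stood at 0.432, 0.282, 0.793 and 0.697 FPKM and at 31.7, 43.2 and 78.1 FPKM (log2 change 4.98, SE of 0.32, limma adjusted p = 4.37e-07). The estrogen sulfotransferase Sult1e1 rose to 4.48, 5.59 and 24.01 FPKM from 0.0688, 0.179, 1.01 and 0.274 FPKM. The 4 that fell were Hamp2, Prlr, Acot3 and Atp6v0d2, and none of these 7 genes had overlapping groups. The calls of Cyp2a5 and Acot3 did not hold with equal totals.

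Glucose production genes fell on the deposited scale while several genes of glycolysis rose. In gluconeogenesis 9 of 13 tested members were lower and 1 was higher, with a median log2 change of -1.23, and with equal totals 2 were lower. Those 2 were G6pc and tyrosine aminotransferase (Tat, log2 change -2.07). Pck2, the mitochondrial form of PEPCK, rose from 0.821, 0.500, 0.616 and 0.800 FPKM to 4.16, 4.19 and 3.68 FPKM, opposite to the cytosolic form. In glycolysis 6 of 28 were higher and 3 lower, and with equal totals 11 and 1. The platelet-type phosphofructokinase Pfkp stood at 0.459, 0.166, 0.218 and 0.263 FPKM in the normal livers and at 4.91, 8.51 and 7.27 FPKM in the tumours. The pyruvate kinase genes moved in opposite directions. Pkm rose from 7.58 ± 3.42 FPKM (SD, n = 4) in normal liver to 25.1 ± 14.1 FPKM (SD, n = 3). The hepatocyte form Pklr fell from 98.95 ± 16.2 FPKM (SD, n = 4) in normal liver to 44.01 ± 4.37 FPKM (SD, n = 3). By mean FPKM Pklr stayed above Pkm in the tumours. Aldoa rose with a log2 change of 1.400. Pfkfb1 and Aldoc fell. Gapdh was called higher as well, but it has many processed copies in the genome, ranged from 5.37 to 71.6 FPKM over the tumours and is uncertain. The calls of Pklr and Aldoc did not hold with equal totals. Gapdh lost its call against normal liver without tumours 1 or 3 (log2 change 1.99 to 2.73, limma adjusted p at most 0.0924).

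Glycogen genes typical of liver fell. Of 17 tested glycogen genes 3 were higher and 4 lower, and with equal totals 3 and 3. Liver glycogen synthase (Gys2) fell 6.21-fold, from 149.9, 175, 121 and 152 FPKM to 27.3, 19.2 and 25.6 FPKM (log2 change -2.59, SE of 0.16, limma adjusted p = 3.95e-07), and its targeting subunits Ppp1r3c and Ppp1r3g fell with log2 changes of -1.67 and -1.62. The liver phosphorylase Pygl fell from 65.03 ± 7.91 FPKM (SD, n = 4) in normal liver to 27.99 ± 6.02 FPKM (SD, n = 3), whereas the brain form Pygb rose from 2.26, 1.37, 1.83 and 1.98 FPKM to 12.9, 12.9 and 12.9 FPKM, with all 3 tumours nearly equal. Pgm2 and Gyg were the other members that rose. G6pdx, the first enzyme of the pentose phosphate pathway, rose 3.62-fold and was the 1 called of 8 tested members, of which 3 were higher with equal totals. The call of Pygl did not hold with equal totals. Gyg lost its call against normal liver without normal liver 3 (log2 change 0.98, limma adjusted p = 4.53e-05).

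Fat synthesis genes split between a lowered hepatocyte set and a few that rose. Of 21 tested lipogenesis genes 9 were lower and 3 higher, and with equal totals 4 and 3. Thrsp, the lipogenic regulator Spot 14, stood at 1172, 1399, 1278 and 1321 FPKM in the normal livers and at 89.6, 88.9 and 62.6 FPKM in the tumours, a 16.1-fold fall. The carbohydrate-responsive factor Mlxipl and the carboxylase gene Acacb fell with log2 changes of -1.79 and -2.25. The desaturase Scd2, which is scarce in adult liver, rose from 18.7, 2.61, 8.84 and 5.01 FPKM to 67.3, 108 and 75.7 FPKM (log2 change 3.36, SE of 0.46, limma adjusted p = 8.45e-05) and its liver counterpart Scd1 was not called. Elovl7 and Pnpla3 also rose. The synthase Fasn went from 142 ± 40.5 FPKM (SD, n = 4) in normal liver to 80.9 ± 30.4 FPKM (SD, n = 3; log2 change -0.83) and was not called.

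Some genes of fat uptake and storage rose, among them several typical of adipocytes, and others fell. Of 14 tested uptake genes 5 were higher and 3 lower, and with equal totals 6 and 3. The scavenger receptor Cd36 stood at 1.86, 2.24, 1.86 and 1.42 FPKM in the normal livers and at 58.8, 45.6 and 33.6 FPKM in the tumours (log2 change 4.02, SE of 0.18, limma adjusted p = 5.10e-08), 24.96-fold higher. Fabp4, Vldlr, Lpl and Slc27a1 rose with log2 changes of 2.35, 1.497, 1.31 and 1.21. The liver forms fell, Fabp1 10.8-fold from 12032 ± 718 FPKM (SD, n = 4) in normal liver to 1113 ± 441 FPKM (SD, n = 3), and the transporters Slc27a2 and Slc27a5 with log2 changes of -2.400 and -2.45. On lipid droplets Cidec, Cidea, Plin3 and the lipase inhibitor Hilpda rose. Cidec stood at 1.38, 2.703, 2.48 and 2.32 FPKM and at 39.5, 17.5 and 8.79 FPKM, highest in tumour 1. The factor Pparg, which drives several of these genes in fat tissue, rose from 1.68 ± 0.127 FPKM (SD, n = 4) in normal liver to 5.65 ± 1.24 FPKM (SD, n = 3) in tumours, with limma adjusted p = 8.31e-06. Fitm1, Mgll and Lipe were the droplet genes that fell. Of 16 tested droplet genes 4 were thus higher and 3 lower, and with equal totals 7 and 1. The calls of Mgll and Lipe did not hold with equal totals. Mgll lost its call against normal liver without tumour 3 (log2 change -0.96, limma adjusted p = 9.05e-04).

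Fatty acid oxidation genes fell on the deposited scale, and most of these calls did not hold with equal totals. Of 31 tested members 22 were lower with a median log2 change of -1.28, and 3 were lower with equal totals. Those that held included the peroxisomal genes Ehhadh and Acaa1b, and Ehhadh, the bifunctional enzyme, stood at 94.4, 135, 107 and 112 FPKM in the normal livers and at 23.3, 17.1 and 13.1 FPKM in the tumours (log2 change -2.61, SE of 0.17, limma adjusted p = 5.31e-07). Their regulator Ppara fell from 31.002 ± 7.22 FPKM (SD, n = 4) in normal liver to 8.99 ± 2.24 FPKM (SD, n = 3). Fgf21, a fasting hormone of liver and a target of ATF4, was the 1 member that rose, from 2.51, 1.41, 0.440 and 3.94 FPKM to 41.6, 46.7 and 33.9 FPKM (log2 change 3.89, SE of 0.35, limma adjusted p = 4.57e-06). The call of Ppara did not hold with equal totals.

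Cholesterol synthesis genes fell and bile acid synthesis genes fell further. In cholesterol synthesis 15 of 27 tested members were lower, and 7 were with equal totals. Msmo1, Tm7sf2 and Sc5d, late enzymes of the pathway, had log2 changes of -2.45, -2.65 and -2.04. Insig2, which holds the SREBP regulators in the endoplasmic reticulum, was the 1 that rose, with 25.4, 33.7, 34.5 and 28.8 FPKM in the normal livers and 97.96, 79.8 and 52.3 FPKM in the tumours. In bile acid synthesis 12 of 16 were lower with a median log2 change of -1.67, and 8 with equal totals. Cyp7a1, the rate-limiting enzyme, stood at 57.5, 66.1, 111 and 68.02 FPKM and at 15.01, 5.88 and 12.6 FPKM (log2 change -2.697, SE of 0.38, limma adjusted p = 1.02e-04). Cyp8b1, which sets the share of cholic acid, stood at 205, 381, 307 and 228 FPKM and at 54.8, 16.7 and 18.1 FPKM. No tumour reached the lowest normal liver in either gene. The 1 enzyme that rose was Cyp39a1, an oxysterol hydroxylase, from 3.28 ± 0.599 FPKM (SD, n = 4) in normal liver to 32.1 ± 1.37 FPKM (SD, n = 3). The nuclear receptor genes Nr1h4 (FXR) and Nr0b2 (SHP), which restrain bile acid synthesis, were not called.

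Uptake carriers of the sinusoidal membrane fell with them. Of 18 tested transporters 10 were lower and 3 higher, and with equal totals 8 and 4. The bile acid importer Slc10a1 (NTCP) stood at 439, 455, 395 and 469 FPKM in the normal livers and at 46.8, 34.8 and 31.6 FPKM in the tumours, and the anion transporter Slc22a7 at 110.4, 127, 166 and 128 FPKM and at 4.85, 3.28 and 1.97 FPKM. Both groups were far apart in each, and Slc22a7 fell 39.5-fold. The export pumps of the canalicular membrane, Abcb11, Abcb4 and Abcc2, were not called on the deposited scale, and Abcb4 was called higher with equal totals. The exporters Abcc4, Abcb1a and Slc51b rose.

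Drug metabolism genes fell. Of 39 tested P450 genes 27 fell and 3 rose, with a median log2 change of -1.46, and 16 fell with equal totals. Cyp2e1, the ethanol-inducible form, stood at 6987, 5913, 6626 and 6938 FPKM in the normal livers and at 426, 322 and 428 FPKM in the tumours (log2 change -4.08, SE of 0.58, limma adjusted p = 1.13e-04). Cyp1a2 fell 31.03-fold and Cyp2c29 32.9-fold. The P450 genes that rose were Cyp3a44, Cyp2b9 and Cyp4a14. Among conjugating enzymes 26 of 41 fell and 2 rose, and with equal totals 14 and 4. The falls were led by the sulfotransferase Sult2a8 at 307, 345, 345 and 342 FPKM in the normal livers and 7.28, 5.71 and 5.33 FPKM in the tumours. The glucuronosyltransferases Ugt2b1 and Ugt1a1 fell 10.8-fold and 7.48-fold. The glutathione transferases Gstm3 and Gsta1 rose. The P450, sulfotransferase, carboxylesterase and glutathione transferase families hold close paralogs among which reads may have been split. Cyp4a14 lost its call against normal liver without tumour 3 or normal livers 1 or 2 (log2 change 0.67 to 0.99950, limma adjusted p at most 0.0575).

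Carboxylesterases, which hydrolyse drugs and stored lipid, fell in 10 of 13 tested genes, and in 9 with equal totals, with a median log2 change of -2.82. Ces3b stood at 355, 367, 459.6 and 388 FPKM and at 14.3, 8.94 and 3.82 FPKM (log2 change -5.44, SE of 0.33, limma adjusted p = 3.55e-07), highest among the tumours in tumour 1. Ces2a fell 36.9-fold and Ces3a 24.2-fold. The constitutive androstane receptor Nr1i3, which induces many drug metabolism genes, fell from 9.15, 10.1, 8.88 and 9.101 FPKM in the normal livers to 0.936, 0.710 and 1.21 FPKM in the tumours. Its relative Nr1i2 (PXR) had a log2 change of -0.84.

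Enzymes that break down amino acids fell in 33 of 39 tested genes and none rose, with a median log2 change of -1.69, and with equal totals 19 fell and none rose. Of 11 tested urea cycle genes 9 fell, and 7 with equal totals. Gnmt, which disposes of excess methyl groups, stood at 1568, 1994, 1869.7 and 1643 FPKM in the normal livers and at 241, 158 and 191 FPKM in the tumours, 8.998-fold lower (log2 change -3.18, SE of 0.25, limma adjusted p = 1.73e-06). Hpd, of tyrosine breakdown, fell 7.94-fold. Otc, of the urea cycle, stood at 125, 175, 155 and 145 FPKM and at 37.2, 30.2 and 23.4 FPKM. Cps1, the first enzyme of that cycle, fell from 739 ± 69.5 FPKM (SD, n = 4) in normal liver to 218 ± 60.8 FPKM (SD, n = 3). In the methionine and one-carbon list 12 of 22 fell and 1 rose, and with equal totals 6 and 4. Mat1a and Ahcy were among those that fell, and Mthfd2, a mitochondrial folate enzyme of growing cells, rose from 0.784, 0.224, 1.23 and 0.456 FPKM to 8.47, 10.4 and 7.09 FPKM.

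Amino acid synthesis and ATF4 target genes rose instead. ATF4 is the transcription factor of the integrated stress response. Of 25 tested members 14 were higher and 1 was lower, with a median log2 change of 1.07, and with equal totals 19 and 0. Asns, Psat1 and Phgdh, which make asparagine and serine, rose 5.65-fold, 4.95-fold and 4.05-fold. Ddit4, an inhibitor of mTORC1, stood at 4.09, 2.54, 4.53 and 3.104 FPKM in the normal livers and at 41.4, 75.8 and 85.1 FPKM in the tumours (log2 change 3.86, SE of 0.26, limma adjusted p = 6.15e-07), and the stress hormone Gdf15 at 2.17, 1.02, 1.35 and 1.103 FPKM and at 12.2, 43.1 and 43.998 FPKM. Atf4 itself was not called. The member that fell was Cebpb. The call of Cebpb did not hold with equal totals. Cebpb lost its call against normal liver without tumour 1 or normal liver 3 (log2 change -0.95 to -0.99990, limma adjusted p at most 0.00559).

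Respiratory chain genes were called lower on the deposited scale alone. Of 45 tested nuclear genes of the respiratory chain 31 were lower with a median log2 change of -1.15, against -0.12 over all genes. With equal totals 0 were called lower and 0 higher. Their median was then -0.43, still under the 0.45 of all genes. In the citric acid cycle 10 of 22 were lower, and 0 with equal totals. Ndufb9, of complex I, stood at 129, 145, 158 and 149 FPKM in the normal livers and at 48.7, 47.7 and 38.2 FPKM in the tumours. The mitochondrially encoded mt-Co1, mt-Nd1 and mt-Cytb had log2 changes of -1.68, -1.43 and -1.498. The calls of Ndufb9, mt-Co1, mt-Nd1 and mt-Cytb did not hold with equal totals.

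Hepcidin carried the largest change among iron genes. Hamp, the hormone that blocks iron export, stood at 4022, 5169, 5461 and 4771 FPKM in the normal livers and at 193, 139 and 114 FPKM in the tumours, 32.7-fold lower (log2 change -5.05, SE of 0.25, limma adjusted p = 8.61e-08). The transferrin receptor Tfrc rose from 3.99 ± 0.868 FPKM (SD, n = 4) in normal liver to 13.03 ± 2.06 FPKM (SD, n = 3), and the plasma carriers transferrin (Trf), ceruloplasmin (Cp), haptoglobin (Hp) and hemopexin (Hpx) rose as well. Trf stood at 8837, 8345, 7795 and 8896 FPKM and at 22723, 21794 and 22031 FPKM, one of the highest levels of any gene in the tumours. Of 27 tested members 6 were higher, the sixth being Slc11a2, and 8 were lower, including the heme synthesis genes Alas1, Alad, Cpox and Urod. With equal totals 9 were higher and 2 lower. The calls of Alas1, Alad, Cpox and Urod did not hold with equal totals. Alas1 lost its call against normal liver without normal liver 3 (log2 change -0.89, limma adjusted p = 8.07e-04).

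Secreted liver proteins changed unevenly. Of 36 tested plasma proteins 15 were lower and 1, Trf, was higher, and with equal totals 7 and 2. Albumin (Alb), the defining product of hepatocytes, stood at 37040.0, 40701, 35055 and 38305 FPKM in the normal livers and at 26669, 25722 and 20324 FPKM in the tumours (log2 change -0.65) and was not called. The protease inhibitor Serpina1c fell 15.4-fold and Serpina6, which carries cortisol, fell 12.04-fold. The fibrinogen genes Fga, Fgb and Fgg were not called. Of 24 tested genes of apolipoproteins and lipoprotein assembly 10 were lower and 2 higher, and with equal totals 4 and 3. Among them Apoa4 rose 15.7-fold, from 91.7, 82.1, 103 and 119 FPKM to 2657, 1406 and 607 FPKM, highest in tumour 1. Apoa1 and Apoa2 fell with log2 changes of -1.49 and -2.23, and Apoa5 fell 5.77-fold. Apob and Apoe were not called. The call of Apoa1 did not hold with equal totals.

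Among complement factors 11 of 24 fell and 3 rose, with a median log2 change of -0.89, and with equal totals 3 fell and 5 rose with a median of -0.19. The terminal component gene C8b stood at 246, 251, 324 and 279 FPKM and at 33.9, 22.8 and 15.3 FPKM. The 3 that rose were the C1q genes C1qa, C1qb and C1qc, which macrophages make. Of 26 tested acute phase genes 6 rose and 4 fell, and with equal totals 11 and 3. Orm2 stood at 14.8, 13.7, 19.3 and 14.6 FPKM in the normal livers and at 92.3, 204 and 237 FPKM in the tumours, and Lcn2, a siderophore-binding protein, at 4.88, 0.680, 3.71 and 5.36 FPKM and at 1445, 2229.9 and 3269.8 FPKM. The groups were apart in both. Of the serum amyloid genes Saa1 was not called and Saa4 fell (log2 change -1.55). The call of Saa4 did not hold with equal totals. C1qa lost its call against normal liver without normal liver 3 (log2 change 0.98, limma adjusted p = 0.00109).

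Most transcription factors of hepatocytes were not called, though the share called lower on the deposited scale was above that of all genes. Of 34 tested factors 11 were lower (32.4%, against 12.4% of all genes) and 4 higher (11.8%, against 10.7%), and with equal totals 3 and 8. Hnf4a stood at 154, 156, 182 and 175 FPKM in the normal livers and at 130.3, 113 and 119 FPKM in the tumours (log2 change -0.46). It was not called, nor were Foxa2 and Foxa3. Those lower with both scalings included Nr1i3 and Onecut1. Cebpa fell from 457 ± 27.2 FPKM (SD, n = 4) in normal liver to 199.7 ± 24.2 FPKM (SD, n = 3). Those that rose were Sox9, Hes1, Pparg and Gata6. The call of Cebpa did not hold with equal totals.

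Marker genes of both ends of the liver lobule fell. Hepatocytes near the central vein and near the portal vein express different enzymes. Of 24 tested pericentral genes 17 fell and of 22 periportal genes 16 fell, with median log2 changes of -1.44 and -1.52, and 11 and 8 fell with equal totals. Glutamine synthetase (Glul), of the cells around the central vein, stood at 209, 200.3, 196 and 187 FPKM in the normal livers and at 36.9, 39.8 and 42.5 FPKM in the tumours (log2 change -2.29, SE of 0.20, limma adjusted p = 3.54e-06). The periportal Cyp2f2 stood at 580.2, 826, 703 and 615 FPKM and at 194, 93.6 and 54.9 FPKM. The pericentral member that rose was Slc13a3, and the periportal ones were Sox9, Apoa4, Cdh1 and Aldh1b1. Of 16 tested clock genes 5 fell, among them Ciart, Dbp, Tef and Per3, and none rose, and with equal totals 2 fell. The labels do not give the hour at which the samples were taken. The calls of Dbp, Tef and Per3 did not hold with equal totals. Slc13a3 lost its call against normal liver without tumour 1 or normal liver 2 (log2 change 0.97 to 0.98, limma adjusted p at most 2.78e-04).

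**Figure D3:**
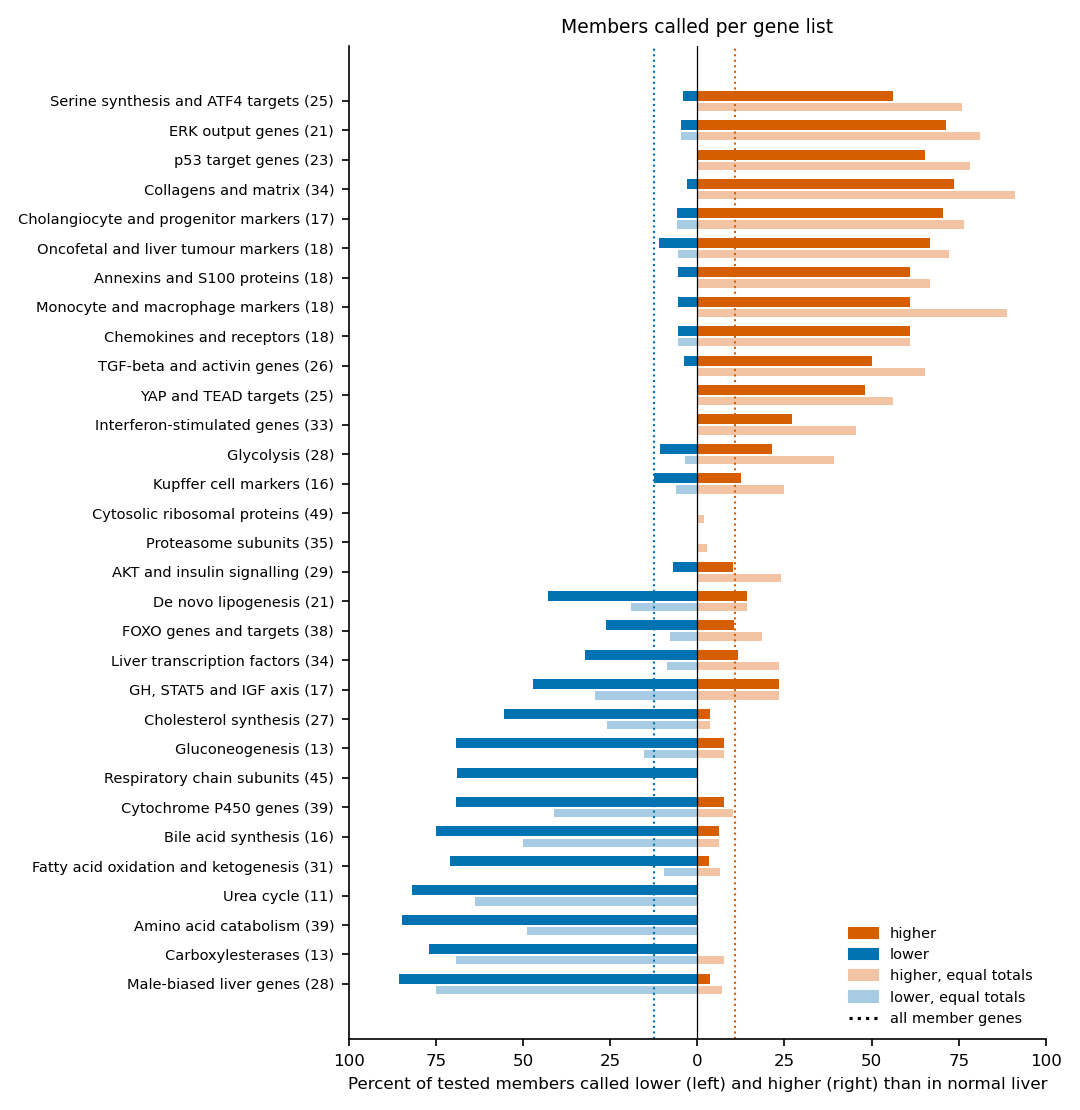
Percent of the tested members of 31 gene lists called higher (right) and lower (left) in the tumours against normal liver. Solid bars are the deposited scale, pale bars are equal totals and the dotted lines mark the shares over all genes, 10.7% and 12.4%. Many amino acid catabolism and male-biased genes are called lower on both scales, whereas respiratory chain genes are called lower on the deposited scale alone.

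Epithelial genes of bile ducts and progenitor cells rose. Of 17 tested markers 12 rose and 1, Ggt1, fell, with a median log2 change of 2.17, and with equal totals 13 and 1. Sox9, the factor of duct and progenitor cells, stood at 0.516, 0.997, 0.480 and 0.631 FPKM in the normal livers and at 21.2, 26.5 and 35.8 FPKM in the tumours (log2 change 4.101, SE of 0.16, limma adjusted p = 2.48e-08). Cd24a stood at 0.861, 0.432, 0.284 and 0.704 FPKM and at 51.1, 51.6 and 58.2 FPKM. The defining duct genes did not all follow: Krt7 was at 0.424, 0.111, 0.222 and 0.193 FPKM in the normal livers and at 0.289, 0.214 and 0.258 FPKM in the tumours, Cftr at 0.0330, 0, 0.0269 and 0.0292 FPKM and at 0.986, 1.05 and 0.297 FPKM, and Krt19 had a log2 change of 0.57. Krt7 and Cftr were too low to be tested. Epcam rose from 1.67, 0.559, 1.05 and 1.09 FPKM to 9.46, 8.69 and 5.87 FPKM, and the hepatocyte keratins Krt8 and Krt18 rose 3.47-fold and 3.66-fold. The summed level of the list was 418 to 446 FPKM in the normal livers and 4210.3 to 7206 FPKM in the tumours, most of it in the tumours from Spp1. The part of duct cells was not tested.

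Fetal and tumour markers of liver rose in 12 of 18 tested genes, and in 13 with equal totals. Gpc3, a surface proteoglycan of hepatocellular carcinoma, rose from 0.801 ± 0.435 FPKM (SD, n = 4) in normal liver to 40.8 ± 9.37 FPKM (SD, n = 3) in tumours, with limma adjusted p = 7.54e-07, and Afp, the fetal counterpart of albumin, from 43.9 ± 39.6 FPKM (SD, n = 4) in normal liver to 222 ± 179 FPKM (SD, n = 3). Cpe and Golm1 had log2 changes of 5.45 and 3.24. H19 and Glul were the 2 that fell, and H19, an imprinted fetal transcript, ranged from 41.7 to 594 FPKM over the normal livers and overlapped with the tumours. The microRNA gene Mir6358 was listed at 0 in all 4 normal livers and at 73.1, 64.3 and 63.8 FPKM in the tumours. The call of H19 did not hold with equal totals. Afp lost its call against normal liver without tumour 3 (log2 change 1.94, limma adjusted p = 0.0628), and H19 lost its call without tumours 1, 2 or 3 or Akt/Nras tumour 2 or normal livers 1, 3 or 4 (log2 change -1.505 to -2.16, limma adjusted p at most 0.109).

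Most genes of the glandular and squamous epithelium list were low in both groups. Of 32 listed genes 23 had means under 1 FPKM in the tumours and 26 in normal liver. Of the 9 that were tested 6 rose and 1 fell, and with equal totals 7 and 1. Members low in normal liver could be tested through the tumours alone, which favours rises. Ly6d stood at 0.689, 0.599, 0.281 and 0.610 FPKM in the normal livers and at 322, 525 and 1044 FPKM in the tumours, Slpi at 3.33, 1.32, 2.21 and 6.83 FPKM and at 290.1, 256 and 287 FPKM, and Wfdc2 at 1.65, 2.64, 0.642 and 0.796 FPKM and at 57.1, 51.9 and 48.6 FPKM. In each of the 3 genes the lowest tumour was well above the highest normal liver. The calcium-binding S100 and annexin families rose in 11 of 18 tested genes, and in 12 with equal totals. S100a11, Anxa2 and Anxa5 rose 62.9-fold, 22.9-fold and 30.3-fold, and S100a1 fell from 217 ± 13.95 FPKM (SD, n = 4) in normal liver to 73.1 ± 15.9 FPKM (SD, n = 3). Junction genes rose in 7 of 23, 11 with equal totals, among them Cdh17, the intestinal cadherin, listed at 0 in 3 normal livers and at 5.11, 10.4 and 29.7 FPKM in the tumours. The gap junction gene Gjb1 fell. The calls of S100a1 and Gjb1 did not hold with equal totals.

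Targets of YAP and the Notch pathway rose. In the YAP and TEAD list 12 of 25 tested genes were higher and none was lower, and with equal totals 14 were higher and none was lower. Ccn2 (connective tissue growth factor) stood at 1.403, 1.29, 3.91 and 1.86 FPKM in the normal livers and at 44.9, 74.7 and 88.2 FPKM in the tumours (log2 change 4.51, SE of 0.30, limma adjusted p = 5.76e-07). Ajuba rose from 1.57 ± 0.481 FPKM (SD, n = 4) in normal liver to 15.8 ± 3.54 FPKM (SD, n = 3), and Yap1 itself was not called. In the Notch list 6 of 15 were higher, 8 with equal totals, with the ligand Jag1 at 0.586, 0.784, 0.861 and 0.915 FPKM in the normal livers and 5.06, 6.83 and 9.76 FPKM in the tumours and the target Hes1 at 8.804, 5.58, 4.87 and 9.53 FPKM and 24.7, 43.04 and 35.3 FPKM. Of 26 tested TGF-beta and activin genes 13 rose and 1 fell, and with equal totals 17 and 0. The activin subunit Inhbb stood at 0.241, 0.183, 0.491 and 0.133 FPKM and at 4.298, 8.56 and 21.4 FPKM. Tumour 3 was the highest and tumour 1 the lowest in Ccn2, Jag1 and Inhbb.

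Extracellular matrix genes rose in 25 of 34 tested genes, with a median log2 change of 1.52, and in 31 with equal totals. Col1a1, of fibrillar collagen, stood at 2.603, 1.61, 1.61 and 1.49 FPKM in the normal livers and at 34.8, 44.98 and 47.7 FPKM in the tumours (log2 change 3.95, SE of 0.14, limma adjusted p = 1.52e-08). Col4a1, of basement membrane, rose 9.56-fold and the matrix protein Sparc 20.7-fold. The protease inhibitor Timp1 stood at 0.0962, 0.126, 0.353 and 0.383 FPKM and at 8.69, 17.8 and 37.7 FPKM. Col18a1, which hepatocytes make, was the 1 that fell. Stellate cell and myofibroblast markers moved with these genes: 7 of 17 tested rose, among them Pdgfrb (log2 change 1.78), Acta2 (1.64) and Vim (3.26), 1 fell (Ecm1), and Lrat (-0.79) was not called. With equal totals 8 of them rose and 1 fell. Their summed level was 116 to 137 FPKM in the normal livers and 156 to 191 FPKM in the tumours, and the part of these cells in the matrix genes was not tested. The call of Col18a1 did not hold with equal totals.

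Macrophage genes rose, and most Kupffer cell genes were not called. Kupffer cells are the resident macrophages of liver. Of 18 tested monocyte and macrophage markers 11 rose and 1 fell, and with equal totals 16 and 0. Lyz2 stood at 45.04, 25.2, 37.2 and 37.9 FPKM in the normal livers and at 79.8, 117 and 119 FPKM in the tumours, Cx3cr1 at 0.190, 0.148, 0.348 and 0.428 FPKM and at 5.27, 6.78 and 7.07 FPKM, and Cd14, which hepatocytes also express, at 1.68, 0.965, 1.7497 and 2.097 FPKM and at 138, 300.0 and 403 FPKM. The summed level of these markers was 949 to 1041 FPKM in the normal livers and 750.3 to 995 FPKM in the tumours, where Arg1, an enzyme of hepatocytes too, takes most of the first. Of 16 tested Kupffer cell markers Csf1r and Cdh5 rose and Id3 and Slc40a1 fell, and with equal totals 4 rose and 1 fell, while the defining genes Clec4f, Vsig4, Timd4 and Marco were not called on the deposited scale. The summed level of the list was 247 to 322 FPKM in the normal livers and 202 to 254 FPKM in the tumours. The chemokine Ccl2, which draws monocytes, stood at 0.150, 0.294, 0.184 and 0.199 FPKM and at 9.39, 14.3 and 8.67 FPKM, and 11 of 18 tested chemokine genes rose, 11 with equal totals. Cxcl12 was the 1 that fell, 3.995-fold. The calls of Arg1 and Slc40a1 did not hold with equal totals. Csf1r lost its call against normal liver without tumour 2 or normal liver 3 (log2 change 0.87 to 0.99, limma adjusted p at most 0.00295), and Cdh5 lost its call without tumour 2 or normal livers 3 or 4 (log2 change 0.91 to 0.99, limma adjusted p at most 1.51e-04).

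Defining markers of neutrophils and T cells were low. Of the neutrophil list Lcn2, S100a8 and S100a9 rose, with both scalings. The receptor gene Csf3r was at 0.308, 0.216, 0.376 and 0.283 FPKM in the normal livers and at 0.794, 1.01 and 2.696 FPKM in the tumours, and Cxcr2 at 0.0280, 0, 0 and 0 FPKM and at 0.0542, 0.0918 and 0.597 FPKM, so every tumour was above every normal liver in both, and the neutrophil surface gene Ly6g was at 0, 0, 0 and 0.120 FPKM and at 0.117, 0 and 0 FPKM. These 3 genes were too low to be tested, and the part of neutrophils was not tested. The T cell gene Cd3e was at 0.126, 0.0273, 0.0768 and 0.111 FPKM and at 0.0945, 0.0411 and 0.103 FPKM. All 25 T and NK cell markers had means under 1 FPKM in the tumours, and the 1 that was tested, Zap70, fell from 4.57 ± 0.542 FPKM (SD, n = 4) in normal liver to 0.970 ± 0.330 FPKM (SD, n = 3). Sinusoidal endothelial markers rose in 6 of 25 and fell in 1, with equal totals in 8 and 0, led by the lymphatic receptor Flt4 at 1.84, 1.88, 1.85 and 1.902 FPKM and 23.4, 21.02 and 17.6 FPKM, while Stab2 was not called. Hemoglobin transcripts were higher, Hba-a1 at 999.8, 558, 624 and 650.1 FPKM in the normal livers and 1137, 2023 and 1738 FPKM in the tumours, and normal liver 1 was close to the lowest tumour. The part of blood in this was not tested. Interferon-stimulated genes rose in 9 of 33 tested genes, in 15 with equal totals, and Oas1a stood at 0.544, 0.650, 0.998 and 0.722 FPKM and at 9.56, 9.02 and 7.06 FPKM. Of 22 tested genes of antigen presentation Ctss and H2-Q4 rose and H2-Q10 fell, with a median log2 change of 0.53, and with equal totals 11 rose, 0 fell and the median was 1.02. The calls of Zap70 and H2-Q10 did not hold with equal totals. H2-Q10 lost its call against normal liver without tumour 3 (log2 change -0.96, limma adjusted p = 2.41e-04).

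Some proliferation genes were called higher, in shares above that of all genes, and CDK inhibitors rose. Of 16 tested mitosis genes 3 were called higher (18.75%, against 10.7% of all genes), Mki67, Ube2c and Plk1, and with equal totals 12 were. All 16 had positive log2 changes, with a median of 0.82. Of the 30 listed genes 22 had means under 1 FPKM in normal liver, so members could pass the minimum level through the tumours alone. The shared direction is therefore partly set by the choice of genes. Mki67 stood at 1.63, 0.177, 0.634 and 0.587 FPKM in the normal livers and at 1.82, 3.18 and 2.38 FPKM in the tumours, and in Ube2c and Plk1 normal liver 1 lay within the tumours. Of 30 replication genes 6 rose (20%) and 2, Mcm10 and Tk1, fell, and with equal totals 13 rose and 1 fell. Cdkn1a (p21) rose with a log2 change of 4.81 and an SE of 0.25 (limma adjusted p = 1.27e-07). Cdkn2b (p15) stood at 0.184, 0.241, 0.0752 and 0.245 FPKM and at 12.7, 21.3 and 47.1 FPKM, and Cdkn2a (p16 and p19) at 0.0729, 0.380, 0.178 and 0.194 FPKM and at 6.16, 8.498 and 21.1 FPKM. In all 3 of these genes tumour 3 was the highest and the groups were apart. The call of Tk1 did not hold with equal totals. Mki67 lost its call against normal liver without tumours 2 or 3 or normal livers 2, 3 or 4 (log2 change 0.85 to 1.03, limma adjusted p at most 0.0961), and Ube2c lost its call without tumours 1, 2 or 3 or normal livers 2, 3 or 4 (log2 change 0.84 to 1.22, limma adjusted p at most 0.134). Plk1 lost its call without tumours 2 or 3 or Akt/Nras tumour 3 or normal livers 2, 3 or 4 (log2 change 0.89 to 1.18, limma adjusted p at most 0.147).

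Target genes of p53 rose in 15 of 23 tested and none fell, with a median log2 change of 1.26, and 18 rose with equal totals. Phlda3, an inhibitor of AKT at the membrane, stood at 0.493, 0.572, 0.871 and 0.801 FPKM in the normal livers and at 17.6, 29.6 and 43.2 FPKM in the tumours (log2 change 4.13, SE of 0.24, limma adjusted p = 2.79e-07). Btg2 and Plk2 rose 9.51-fold and 9.42-fold, and Bax, which promotes cell death, rose from 19.6 ± 1.03 FPKM (SD, n = 4) in normal liver to 48.6 ± 6.696 FPKM (SD, n = 3). Mdm2 and Trp53 had log2 changes of 0.74 and 0.87 and were called with equal totals alone.

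Stress and housekeeping lists were mixed. Among NRF2 and antioxidant genes 10 of 35 rose, led by Gpx3 at 5.46, 1.599, 4.44 and 4.94 FPKM and 60.7, 61.2 and 111 FPKM, and 6 fell, among them Sod1 (3.799-fold), and with equal totals 18 rose and 2 fell. Hypoxia-induced genes rose in 6 of 24 and fell in 2, Pdk1 and Bnip3, and with equal totals in 14 and 1. Plod2, which modifies collagen, was at 0.0158, 0.124, 0.0969 and 0.0631 FPKM in the normal livers and at 1.38, 8.97 and 9.23 FPKM in the tumours. Of 32 genes of the endoplasmic reticulum Ddit3 and Eif2ak3 rose and Herpud1 fell, and with equal totals 5 rose. Of 22 heat shock genes 2 rose and 5 fell (6 and 1 with equal totals), with Hspb1 at 7.46, 8.65, 10.5 and 6.05 FPKM and 151, 107 and 55.4 FPKM and Hspb6 lower (log2 change -1.74), and the others were Cryab, Hspa1b, Hspa1a, Trap1 and Hspd1. Of 38 lysosomal genes 3 were higher, a smaller share than the 10.7% of all genes, and 1 was lower, and with equal totals 13 and 1. The membrane protein Cd63 stood at 5.94, 1.45, 3.09 and 2.03 FPKM and at 49.2, 62.5 and 93.8 FPKM. None of 49 ribosomal protein genes and none of 35 proteasome genes was called, with medians of -0.38 and -0.31, and with equal totals 1 of each was higher. The calls of Bnip3, Herpud1, Hspa1b, Hspa1a, Trap1 and Hspd1 did not hold with equal totals. Ddit3 lost its call against normal liver without tumour 3 or normal liver 2 (log2 change 0.63 to 0.998, limma adjusted p at most 0.0121), and Hspa1a lost its call without tumour 3 or normal liver 3 (log2 change -0.85 to -0.98, limma adjusted p at most 0.0409). Hspd1 lost its call without tumour 3 (log2 change -0.97, limma adjusted p = 2.09e-04).

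The Akt/Nras tumours received the same genes but Foxo1AAA, and the contrast between the tumour groups came from the same fit. Against them 226 genes were higher in Akt/Nras/Foxo1AAA tumours (1.9% of the genes tested) and 44 were lower (0.37%). With equal totals the numbers were 148 and 160. Both comparisons use the Akt/Nras/Foxo1AAA libraries, so their calls are not independent. Of the genes higher than in Akt/Nras tumours 153 were called lower than in normal liver, 24 were called higher than in normal liver and 49 were not called against it. Of the 44 genes lower than in Akt/Nras tumours 26 were higher than in normal liver, 17 were not called against it and 1, the microRNA gene Mir703, was lower. Mir703 lost its call against Akt/Nras tumours without tumours 1 or 2 or Akt/Nras tumour 1 (log2 change -0.89 to -1.03, limma adjusted p at most 0.0627).

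Many bile acid and P450 genes were called above Akt/Nras tumours, among them genes called below normal liver. Of 16 tested bile acid genes 8 were higher than in Akt/Nras tumours, of 39 P450 genes 17 and of 24 pericentral genes 11, and none of the 3 lists had a member called lower. With equal totals the numbers higher were 6, 14 and 8, and 1 P450 gene was lower. These counts include genes whatever their call against normal liver. The P450 gene Cyp2b9 was called higher than in both, with log2 changes of 1.23 against normal liver and 1.49 against Akt/Nras tumours. Cyp8b1 stood at 1.06, 1.96 and 2.82 FPKM in the Akt/Nras tumours beside 54.8, 16.7 and 18.1 FPKM here (log2 change 3.22, SE of 0.42 with limma adjusted p = 0.00336). Cyp2e1 stood at 11.7, 71.3 and 114 FPKM beside 426, 322 and 428 FPKM (log2 change 3.04, SE of 0.62 with limma adjusted p = 0.0134). Cyp7a1 stood at 0.233, 0.647 and 2.33 FPKM beside 15.01, 5.88 and 12.6 FPKM (log2 change 2.599, SE of 0.40 with limma adjusted p = 0.00573). In all 3 genes the lowest Akt/Nras/Foxo1AAA tumour was above the highest Akt/Nras tumour and under the lowest normal liver. Cyp2c50, Cyp2c54, Cyp2c37, Ces3b, Rdh16f2 and Mup12 had log2 changes of 2.504, 2.56, 2.396, 2.57, 2.62 and 3.52 between the tumour groups. Cyp2e1 lost its call against Akt/Nras tumours without tumour 1 (log2 change 2.98, limma adjusted p = 0.0534), and Mup12 lost its call without tumours 1 or 2 or Akt/Nras tumour 1 (log2 change 2.75 to 3.48, limma adjusted p at most 0.056).

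**Figure D4:**
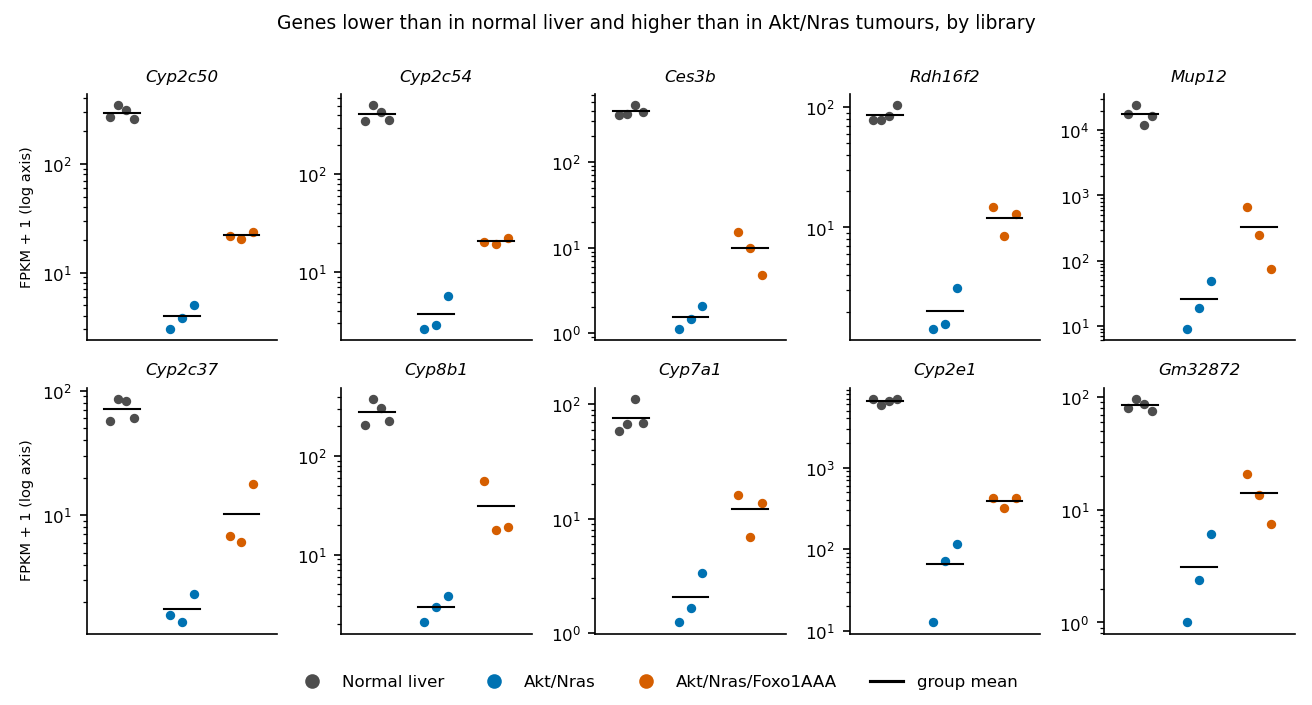
Expression (FPKM + 1, log scale) by library of the 10 genes lower than in normal liver and most raised above Akt/Nras tumours. Points are libraries, bars are group means, and in Cyp8b1, Cyp2e1 and Cyp7a1 the 3 groups do not overlap.

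Other hepatocyte genes stood between the groups too. Hamp stood at 31.1, 19.1 and 40.9 FPKM in the Akt/Nras tumours beside 193, 139 and 114 FPKM here (log2 change 2.28, SE of 0.26 with limma adjusted p = 0.00245), and Igfbp2 at 14.5, 24.5 and 46.7 FPKM beside 100.2, 74.2 and 68.2 FPKM (log2 change 1.602, SE of 0.32 with limma adjusted p = 0.0135). Liver glycogen synthase (Gys2) and Thrsp had log2 changes of 1.25 and 1.49. Of the FOXO list Foxo1 was called higher here than in Akt/Nras tumours. G6pc at 10.4, 13.5 and 15.4 FPKM and Igfbp1 at 528, 206 and 374 FPKM in Akt/Nras tumours had log2 changes between the tumour groups of 0.05 and -0.27 (limma adjusted p = 0.903 and 0.814), and the sign of G6pc turned with equal totals. Igfbp2 lost its call against Akt/Nras tumours without tumour 1 (log2 change 1.44, limma adjusted p = 0.0589), and Thrsp lost its call without tumours 1 or 2 (log2 change 1.403 to 1.41, limma adjusted p at most 0.0595).

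A few genes were higher than in both other groups. Mup20 stood at 50.8, 187 and 139 FPKM in the Akt/Nras tumours, against 1206, 773 and 312 FPKM here (log2 change 2.58, SE of 0.52 with limma adjusted p = 0.0132), and Apoa4 at 419.6, 280.0 and 513 FPKM against 2657, 1406 and 607 FPKM (log2 change 1.74, SE of 0.43 with limma adjusted p = 0.0288). Cyp2a4 and Sult4a1, a sulfotransferase of brain, had log2 changes of 1.63 and 1.32 against Akt/Nras tumours. The histone genes H4c8 and H4c9 rose against both groups, with 30.2, 36.3 and 32.2 FPKM of H4c8 here, 2.36, 0.949, 2.45 and 1.69 FPKM in the normal livers and 7.24, 11.3 and 13.9 FPKM in the Akt/Nras tumours. Histone transcripts lack poly(A) tails and the library step is not specified, and its part in this was not tested. Fam131c, Crygn and 2010003K11Rik were the others with the largest such changes. Mup20 lost its call against Akt/Nras tumours without tumours 1 or 2 (log2 change 2.15 to 2.47, limma adjusted p at most 0.0534), and Apoa4 lost its call without tumours 1 or 2 or Akt/Nras tumours 1 or 2 (log2 change 1.23 to 1.79, limma adjusted p at most 0.0873). Cyp2a4 lost its call without tumours 1 or 2 or Akt/Nras tumours 1 or 2 or normal liver 4 (log2 change 1.23 to 1.83, limma adjusted p at most 0.13), and H4c9 lost its call without tumours 1 or 2 or Akt/Nras tumour 1 (log2 change 0.98 to 1.33, limma adjusted p at most 0.0778). 2010003K11Rik lost its call without tumours 1 or 2 or Akt/Nras tumour 1 (log2 change 1.19 to 1.44, limma adjusted p at most 0.0573).

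Genes lower than in Akt/Nras tumours included duct and hypoxia genes. Krt19 stood at 12.3, 7.98 and 28.9 FPKM in the Akt/Nras tumours and at 1.69, 1.42 and 2.19 FPKM here, and Epcam at 37.3, 17.2 and 25.2 FPKM and 9.46, 8.69 and 5.87 FPKM. In the hypoxia list 4 of 24 were lower, Ndrg1, Egln3, Slc2a1 and Lox, with log2 changes of -1.66, -1.71, -1.36 and -1.13, and none was higher, and with equal totals 6 were lower. Slc2a1, the glucose transporter GLUT1, stood at 41.2, 19.8 and 31.7 FPKM in the Akt/Nras tumours and at 6.73, 10.4 and 18.3 FPKM here. No member of the mitosis, p53 or ERK lists was called between the tumour groups on the deposited scale. With equal totals 9 of 16 mitosis genes and 3 of 21 ERK genes were lower here than in Akt/Nras tumours, and no p53 target was called. Ndrg1 lost its call against Akt/Nras tumours without tumours 1 or 2 (log2 change -1.58 to -1.63, limma adjusted p at most 0.0595), and Egln3 lost its call without tumours 1 or 2 or Akt/Nras tumours 1, 2 or 3 or normal livers 1, 2, 3 or 4 (log2 change -1.17 to -1.92, limma adjusted p at most 0.117). Slc2a1 lost its call without tumours 1 or 2 or Akt/Nras tumours 1 or 3 (log2 change -1.05 to -1.33, limma adjusted p at most 0.0794), and Lox lost its call without Akt/Nras tumour 1 (log2 change -0.92, limma adjusted p = 0.0181).

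The 3 tumours also differed among themselves. Pearson's r with the mean of normal liver was 0.873 in tumour 1, 0.851 in tumour 2 and 0.833 in tumour 3, and with the mean of Akt/Nras tumours it was 0.957, 0.973 and 0.980. Of the 1475 genes called lower tumour 1 was the highest tumour in 941 (63.8%) and tumour 3 the lowest in 919 (62.3%). Of the 1271 called higher tumour 3 was the highest in 595 (46.8%) and tumour 1 the lowest in 661 (52.0%). The median range over the tumours was 0.26 on the log2 scale for all genes and 0.40 for genes called in either direction, while the normal livers had medians of 0.28 and of 0.31 to 0.33.

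Among called genes with at least 10 FPKM in the tumours wide ranges belonged to Mup7, Mup12, Ier3, Igfbp1, Igfbp3, Fos and Gapdh. Fos stood at 2.11, 21.1 and 9.73 FPKM and was the 1 of these with tumour 2 the highest. The 4 others of these that rose were highest in tumour 3, and Mup7 and Mup12 were highest in tumour 1. Leaving out tumour 1 left 110 genes higher and 21 lower than in Akt/Nras tumours, and leaving out tumour 3 gave 336 and 89. The number lower than in Akt/Nras tumours was 24 without tumour 2 and 68 without Akt/Nras tumour 2. Against normal liver the same steps gave 1290 and 1539, and 1226 and 1378, so the comparison with normal liver moved little.

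**Figure D5:**
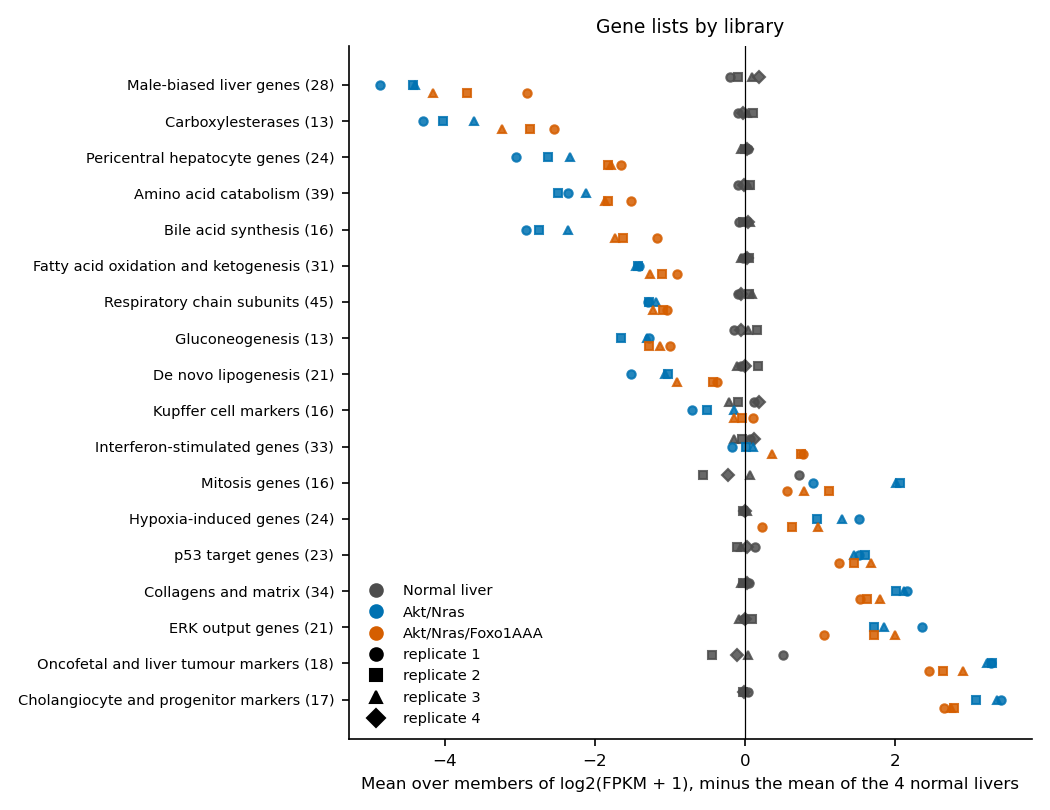
Mean log2(FPKM + 1) of the tested members of 18 gene lists in each of the 10 libraries, relative to the mean of normal liver. Among the Akt/Nras/Foxo1AAA tumours, tumour 1 lies nearest to normal liver in the carboxylesterase, bile acid and pericentral lists, and the Akt/Nras tumours lie farther still.

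At the edge of the gene set, 1064 genes reached 1 FPKM in exactly 3 of the 7 libraries and 588 more reached it in exactly 2. The gene just inside was Mapkbp1, for which the third highest value was 1.00004 FPKM, and the gene just outside was Tinag, with 0.999681 FPKM.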

How the data were processed

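RNA-seq libraries of 4 normal livers, 3 Akt/Nras/Foxo1AAA tumours and 3 Akt/Nras tumours were compared, grouped by their sample labels. The values are FPKM per gene as deposited by the authors, with replicates in separate columns. The submitters' processing notes name FastQC 0.11.7 and GRCm38 with no role, while aligner, counter and annotation were not given in the sources used here. A protocol in the labels allows poly(A) capture or rRNA removal, without saying which was used. The tested low values were whole multiples of 1 read to within 0.02, which gave the reads per library. The library size behind the FPKM values was 0.629 to 0.668 times these reads in normal liver and 0.875 to 0.928 times in the tumours.

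Values were taken as log2(FPKM + 1) and fitted with limma 3.58.1 in R 4.3.3 over all 10 libraries, with a mean per group and a trended prior variance, and p-values were adjusted by Benjamini and Hochberg over the 11888 genes. The fit was tested on simulated data. The fold changes on this scale understate the change of low genes, and folds printed as "-fold" are ratios of mean FPKM. Named genes were the injected genes and their paralogs, the called genes with the largest gain or loss of FPKM or log2 change, up to 3 called members per list and direction, and the leading genes of the contrast with Akt/Nras tumours and of the range over tumours. The other genes named were chosen after their values were seen. The members and lists were chosen with earlier results of these data known. Alternatives covered scaling, pseudocount, minimum level, weights, the replicate block and leaving out each library. Results for some genes are not reported here. Promoter sequences and older symbols came from RefSeq.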

Additional observations from a re-analysis of the deposited data

Results flagged for a closer look

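Among the 4 normal livers, 1 library stood apart from the other 3 in 15 of 295 genes checked, by Dixon's test at the 95% level, and chance flags about 1 in 20 such groups. Normal liver 1 was apart in Abcc4 (0.682 FPKM), Cdh17 (0.0191 FPKM), Cidea (0.153 FPKM), Col1a1 (2.603 FPKM), Fos (0.726 FPKM), Sult2a8 (307 FPKM) and Tgfa (3.82 FPKM). All normal livers together held 1 read of Cdh17 and 2 reads of Cidea, so these 2 flags rest on values at the floor. Normal liver 2 was apart in Acot3 (8.69 FPKM), Anxa5 (9.47 FPKM), Cyp2a4 (2.31 FPKM) and Serpina1c (1449 FPKM). Normal liver 3 was apart in Alas1 (302 FPKM), Angptl4 (80.6 FPKM) and Igfbp3 (8.18 FPKM), and normal liver 4 in Sult4a1 (0.0452 FPKM). The tumours, 3 per group, were too few for this test.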

How the results depend on the processing

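Against normal liver, 1271 genes were called higher and 1475 lower. The calls were 2447 and 604 with equal totals, 2172 and 697 with totals that leave out the 50 most abundant genes, and 3037 and 4549 with no limit on the log2 change. With a minimum of 5 FPKM 674 genes were higher. Leaving out 1 library gave 1226 to 1301 higher and 1378 to 1539 lower. Of 279 named genes called against normal liver 232 kept their call with equal totals, 243 with the 50 genes left out, 273 with median ratio scaling and 279 with a pseudocount of 0.1, and none turned its direction in these 4 settings. The cause was not tested. Low genes are limited by depth, since 1 read over 1 kb was worth up to 0.113 FPKM.

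Against Akt/Nras tumours, 226 genes were called higher and 44 lower. The calls were 148 and 160 with equal totals and 987 and 442 with no limit on the log2 change, 351 were higher with a pseudocount of 0.1, and the lower ones numbered 79 with array weights, 81 without the 50 most abundant genes and 16 with a minimum of 5 FPKM. Leaving out 1 library gave 110 to 336 higher and 21 to 89 lower.

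Replicate numbers did not pair the samples: same-numbered libraries had correlations of their deviations from -0.19 to 0.11. With the replicate number as a block 1264 genes were higher and 1476 lower than in normal liver, and 146 were higher and 23 lower than in Akt/Nras tumours.

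Directions turned in genes with small changes that were not called. With equal totals log2 changes against normal liver were 0.076 in Alb, 0.49 in Foxo4 and 0.26 in Hnf4a, and without the 50 most abundant genes 0.38 in Foxo4 and 0.14 in Hnf4a. Against Akt/Nras tumours G6pc was at -0.19 with equal totals, -0.056 without those 50 genes and -0.35 with array weights. Leaving out single libraries gave G6pc -0.14 to 0.22 and Igfbp1 -1.06 to 0.26 against Akt/Nras tumours.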
